A study of Mus musculus with 46 samples.

Results

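The clustered histone genes are the tandem gene families, called Hist1 to Hist4, that encode the linker histone H1 and the core histones H2A, H2B, H3 and H4. Their RNA was followed here on arrays of the mouse nucleus accumbens, the part of the ventral striatum that handles reward. A gene was a member when its symbol, current or older, placed it in one of these clusters. This gave 67 of the 25802 genes in the authors' deposited comparison table. By histone type the members were 20 genes of H2A, 19 of H2B, 13 of H4, 10 of H3 and 5 of H1. On chromosome 13 lay 53 members of Hist1, 24 in a first block and 28 in a second block at higher coordinates, with Hist1h2al (H2af-ps2 in RefSeq) apart from both. Chromosome 11 held 3 members of Hist3, chromosome 3 held 10 of Hist2 and chromosome 6 held 1 of Hist4. Per-array values were at hand for 56 members. The 11 members on chromosomes 3 and 6 were described by the authors' S-scores alone. Of the 56, 37 exceeded the middle of their array on at least 5 arrays and were tested, and 19 did not.

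The study used 46 male mice, 1 array each, from 2 inbred strains, C57BL/6J or DBA/2J. Every mouse carried an osmotic minipump under the skin for 14 days, that released saline or nicotine at 24 mg per kg a day. Chronic mice kept the pump to the end, and withdrawal mice lost it by surgery 24 h before. C57BL/6J supplied 5 chronic nicotine, 6 chronic saline, 6 withdrawal nicotine and 6 withdrawal saline mice. DBA/2J supplied 6 chronic nicotine, 6 chronic saline, 5 withdrawal nicotine and 6 withdrawal saline mice. No mouse was without a pump, so the saline groups share its surgery. The sources used here do not give ages. All 10 tested markers of the spiny neurons of the accumbens, among them Drd1, Drd2 and Adora2a, lay above the array median on every array. Arrays correlated with the mean of their own group at 0.993 or higher.

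Most clustered histone genes are switched on as a cell copies its DNA, so that new histones meet new DNA. Their mRNAs lack introns and end in a stem-loop in place of a poly(A) tail, and they are destroyed when DNA synthesis stops. Neurons of the adult brain no longer divide, but some clustered genes stay active in such cells, in part as transcripts with a poly(A) tail. Many copies of a histone type encode the same or nearly the same protein and share much of their sequence. An array probe of one copy can therefore pick up another, and values of near-identical copies cannot be assigned to one gene with certainty. Of the 37 tested features, 4 also overlapped another histone gene in the annotation. These were H2ac7 (Hist1h2ad), whose feature of 432877 bases runs over 25 other histone genes, H2bc6 (Hist1h2be), which overlaps H1f4, H2aw (Hist3h2a), which overlaps H3f4, and H2ac14 (Hist1h2aj), which overlaps H2bc14.

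Upstream sequences are shown first for genes on which the comparisons below turn, since the members deviated together. They come from RefSeq on the build GRCm38.p6, and 59 of the 67 members had an entry, in 60 windows. Each is the strand of the gene, read 5′ to 3′ up to the base before the transcription start. For H2bc8 and H2bc13 the stretch is that between the starts of the head-to-head partners (H2ac8 and H2ac13), and for the other genes it is the last 150 bases. Capitals mark matches, on either strand, to 5 motifs known from histone promoters. The octamer ATTTGCAT is the site of Oct-1 at H2B genes. NF-Y binds CCAAT, which reads ATTGG on the other strand. A classical TATA box holds TATAAA at its core. Hinfp binds an element of H4 genes of which GGTCC is part. The AC box of H1 genes holds AAACACA. No motif overlaps another in the stretches shown.
H2bc8, chr13:23571221-23571399, + strand: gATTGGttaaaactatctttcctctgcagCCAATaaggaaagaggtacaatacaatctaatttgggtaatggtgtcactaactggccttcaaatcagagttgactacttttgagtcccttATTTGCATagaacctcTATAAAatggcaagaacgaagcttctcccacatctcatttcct
H2bc13, chr13:21716184-21716411, - strand: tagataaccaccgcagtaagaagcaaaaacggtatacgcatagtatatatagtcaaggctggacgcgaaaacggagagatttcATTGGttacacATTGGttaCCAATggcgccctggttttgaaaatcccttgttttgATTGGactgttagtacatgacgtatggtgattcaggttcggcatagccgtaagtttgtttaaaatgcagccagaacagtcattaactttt
H4c3, chr13:23698459-23698608, - strand: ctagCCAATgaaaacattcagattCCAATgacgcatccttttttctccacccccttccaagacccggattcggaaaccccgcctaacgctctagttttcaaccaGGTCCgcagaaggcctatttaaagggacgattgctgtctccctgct
H4c12, chr13:21750554-21750703, - strand: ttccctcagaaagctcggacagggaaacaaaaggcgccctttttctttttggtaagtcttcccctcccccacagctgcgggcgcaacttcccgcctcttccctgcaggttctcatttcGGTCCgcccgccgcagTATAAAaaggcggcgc
H3c6, chr13:23562386-23562535, - strand: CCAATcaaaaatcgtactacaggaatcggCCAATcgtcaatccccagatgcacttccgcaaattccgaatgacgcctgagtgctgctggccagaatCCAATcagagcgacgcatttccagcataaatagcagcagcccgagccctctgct
H1f2, chr13:23738657-23738806, + strand: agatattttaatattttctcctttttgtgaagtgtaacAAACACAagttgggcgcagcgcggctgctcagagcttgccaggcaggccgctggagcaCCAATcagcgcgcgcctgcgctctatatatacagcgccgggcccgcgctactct

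In the 250 bases before the start, the octamer, CCAAT and GGTCC differed in share between the histone types. The octamer stood in 7 of 17 H2B windows (41.2%) and 7 of 18 H2A windows (38.9%), in 0 windows of the other types, and in 1.6% of all 32851 RefSeq windows. CCAAT stood in all 17 windows of H2B and all 18 of H2A, in 5 of 5 of H1, in 6 of 8 of H3 and in 3 of 12 of H4 (25%), against 33.8% of all windows. GGTCC stood in 11 of 12 H4 windows (91.7%) and in 39.8% of all windows. AAACACA stood in 4 of 5 H1 windows (80%), in 2 windows each of H2A and H2B, in 0 of H3 and H4, and in 6.25% of all. TATAAA was spread over the types, with 60% of the H1, 50% of the H4, 47.1% of the H2B, 38.9% of the H2A and 25% of the H3 windows, against 12.4% of all. H4c8 and H4c3, whose strain differences below had opposite signs, both held GGTCC. The windows are those of the reference genome, and DBA/2J sequence was not analysed here.

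The strains were compared first among saline mice, to see how much of the histone signal depends on genetic background. Histone genes were lower in DBA/2J. Of the 37 tested members 20 were lower and 1 was higher at an adjusted p under 0.05. Among all 9596 genes tested, 31.8% were called, 19.4% lower and 12.4% higher. The median difference of the members, DBA/2J minus C57BL/6J on the log2 scale, was -0.25, and that of all genes was -0.02. Of the calls over all genes 60.9% were lower, and 80% with arrays centred on their median, where the members gave 25 lower and 1 higher call. With the spread of each array as a covariate, chosen after seeing the data, the median of the members was -0.13 and 16 were called. A value counts as called below when limma's Benjamini-Hochberg adjusted p over all 9596 genes is under 0.05. Some members passed the intensity filter mainly through the strain in which they were higher. H2ac11, for example, exceeded the middle of the array on 7 arrays and H4c6 on 12, while 21 members did so on all 46. With no filter 26 of the 56 members with array values were lower and 2 higher, and 22.2% of all 16254 genes were called.

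Genes of the core histone H4, which all encode one protein, were called in 7 of 8 cases in saline mice, in both directions. H4c3 (Hist1h4c, chr13:23698060-23698454) ran from 9.77 to 10.32 in the 12 C57BL/6J saline mice, with a median of 10.11. In the 12 DBA/2J saline mice it ran from 9.26 to 9.83, with a median of 9.52. The groups overlapped only at their edges, and all 12 DBA/2J mice lay under the C57BL/6J mean. The difference was -0.56 (SE 0.08), a level 1.48-fold lower (limma adjusted p = 7.8e-08). H4c12 (Hist1h4k, chr13:21750142-21750553) had medians of 9.23 and 8.80 and differed by -0.52 (SE 0.09, adjusted p = 2.5e-05). H4c18 (Hist1h4n) differed by -0.36 (SE 0.09) and H4c11 (Hist1h4j) by -0.30 (SE 0.07). H4c8 (Hist1h4h, chr13:23531044-23531522) went the other way and was the single tested member called higher in DBA/2J saline mice. Its DBA/2J saline values ran from 9.96 to 11.01 (median 10.45) against 9.81 to 10.71 (median 10.14), a difference of 0.27 (SE 0.08, adjusted p = 0.0101). Of the 8 tested H4 genes, 6 were lower, 1 was higher and 1, H4c9, did not pass (-0.22). Over all genes 31.8% were called in this comparison.

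Among the genes of H2B, the partner of H2A in the nucleosome, 4 of 13 were called, all lower in DBA/2J saline mice. That share is close to the 31.8% called among all 9596 genes, where 19.4% were lower and 12.4% higher. H2bc4 (Hist1h2bc, chr13:23684199-23692488) lay between 11.96 and 12.39 (median 12.13) in C57BL/6J and between 11.45 and 11.80 (median 11.56) in DBA/2J. No DBA/2J saline mouse reached the lowest C57BL/6J saline mouse. The difference was -0.57 (SE 0.06, adjusted p = 3.5e-10), the lowest p of the members. H2bc6 (Hist1h2be, chr13:23583670-23622558) separated as fully, from 8.19 to 8.84 (median 8.47) against 7.65 to 8.17 (median 7.94), and differed by -0.56 (SE 0.07). How many of all genes separated so is not given here. H2bc8 (Hist1h2bg, chr13:23571396-23572014) had medians of 7.34 and 6.83 with some overlap and differed by -0.57 (SE 0.09). The remaining call was H2bu1-ps, a pseudogene of the Hist3 cluster, at -0.34 (SE 0.08). The H2B genes H2bc3, H2bc11, H2bc22 and H2bc23 lay between -0.02 and 0.02 and did not pass.

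H2A genes were lower in 7 of 12, H3 genes in 2 of 3, and H1f2 was the single tested gene of the linker histone. Among all genes 31.8% were called in this comparison, 19.4% lower. H1f2 (Hist1h1c, chr13:23738807-23740367), which binds the DNA between nucleosomes, ran from 6.86 to 7.70 (median 7.15) in C57BL/6J and from 6.22 to 6.91 (median 6.74) in DBA/2J. It differed by -0.57 (SE 0.08, adjusted p = 9.8e-08). H3c6 (Hist1h3e, chr13:23561534-23562369) had medians of 7.61 and 7.04 and differed by -0.49 (SE 0.09). Its lowest C57BL/6J value, 6.82, belonged to chronic saline mouse 3 and lay under every DBA/2J saline mouse. H3c10 (Hist1h3h) differed by -0.33 (SE 0.07). Of the H2A genes H2ac4 (Hist1h2ab) differed by -0.45 (SE 0.09), H2ac14 by -0.35 (SE 0.11; -0.19 and no longer called with the array spread as a covariate), H2aw by -0.34 (SE 0.05) and H2ac7 by -0.31 (SE 0.07). The second block on chromosome 13 held 12 calls among 16 tested genes, with a median of -0.30, and the first block 7 among 17, with a median of -0.23. Genes of one block are neighbours and are inherited together, so their strain differences are not independent of each other. In the plot of strain differences, the lower calls lie from H2bc4 at the top to H2ac11. Genes without a call, such as H2bc13 (-0.25) and H2ac22 (-0.24), stand among them. H4c8, the higher call, stands at the bottom, and the genes near 0 are mostly of H2B.

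**Figure D1:**
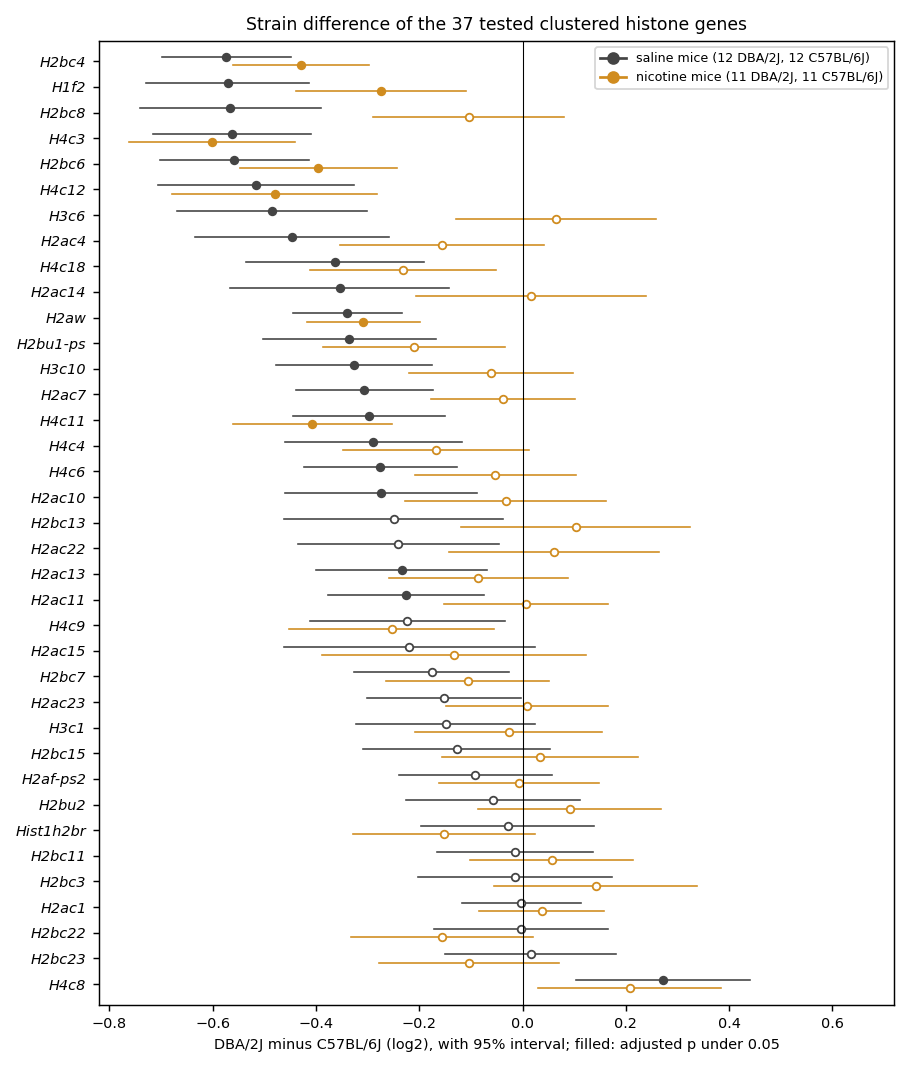
DBA/2J minus C57BL/6J difference (log2, horizontal axis) of each of the 37 tested genes, with its 95% interval, in saline mice (dark) and in nicotine mice (orange). Filled points passed the limma test; 21 genes passed in saline mice and 7 in nicotine mice.

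The same comparison in the nicotine mice, which are other animals, called 7 of the 37 members, all lower in DBA/2J. Here 26.2% of all genes were called, 10.8% lower and 15.4% higher, so the members' share of 18.9% was below that of all genes. The median difference of the members was -0.09 and that of all genes 0.02. All 7 were also called in saline mice, with the same sign, which is 33.3% of the members called there. Over all genes 55.5% of the saline calls were called in nicotine mice too.

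The 7 genes were H4c3, H4c12, H4c11, H2bc4, H2bc6, H2aw and H1f2. H4c3 ran from 9.83 to 10.44 (median 10.14) in the 11 C57BL/6J nicotine mice and from 9.29 to 9.84 (median 9.56) in the 11 of DBA/2J. Its difference of -0.60 (SE 0.08, adjusted p = 6.1e-08) lay beside -0.56 in saline mice. H4c12 differed by -0.48 (SE 0.10) and H4c11 by -0.41 (SE 0.08). H2bc4 differed by -0.43 (SE 0.06), H2bc6 by -0.40 (SE 0.08) and H2aw by -0.31 (SE 0.05). H1f2 differed by -0.27 (SE 0.08, adjusted p = 0.00926), with medians of 7.05 and 6.79. In each of the 7 genes all 11 DBA/2J nicotine mice lay under the C57BL/6J mean. The genes were chosen by this same comparison in these mice, so this describes the calls and adds no support.

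Other members had a strain difference in saline mice and little in nicotine mice. H3c6 had medians of 7.28 and 7.29 under nicotine, a difference of 0.07 (95% interval -0.13 to 0.26), against -0.49 under saline. H2bc8 differed by -0.10 (95% interval -0.29 to 0.08) under nicotine and by -0.57 under saline. H2ac14 stood at 0.02 and -0.35. The change of the strain difference with the drug was tested itself, over both phases. None of the 37 members and none of the 9596 genes (0%) passed, with 11 members and 12.3% of all genes at an unadjusted p under 0.05. The lowest adjusted p of a member was that of H3c6, 0.189, for a change of 0.55 (SE 0.13), and H2bc8 followed with 0.46 (SE 0.13, adjusted p = 0.272). The change was positive in 30 of 37 members (81.1%) and in 68.6% of all genes, with medians of 0.14 and 0.04.

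**Figure D2:**
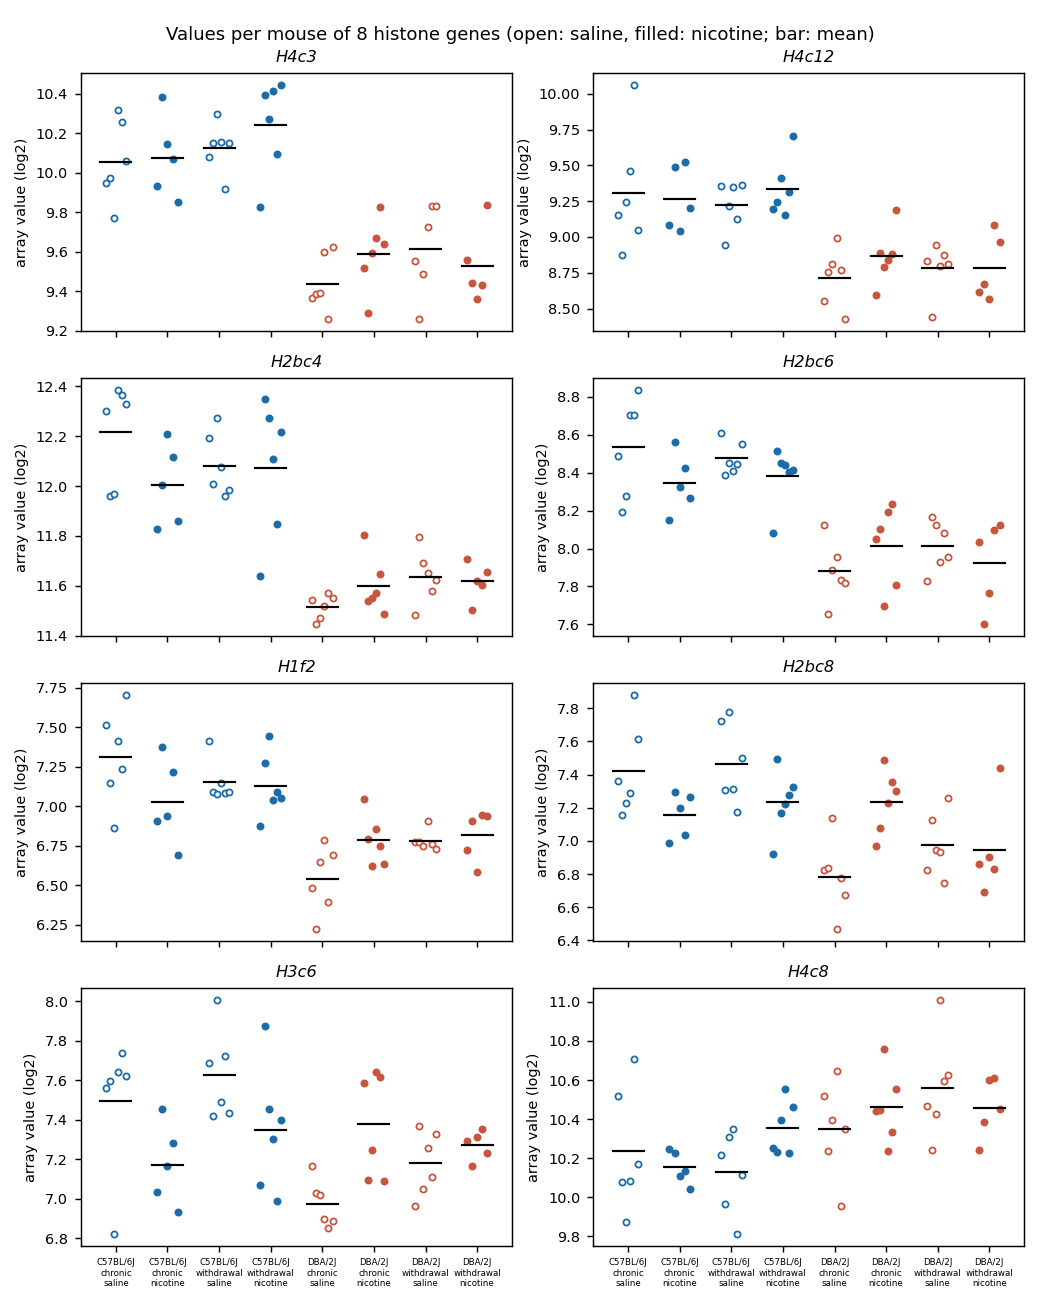
Array value (log2, vertical axis) of 8 histone genes in every mouse of the 8 groups, with C57BL/6J in blue and DBA/2J in red, saline open and nicotine filled; the bar is the group mean. H4c3, H4c12, H2bc4 and H2bc6 are lower in all DBA/2J groups, while H2bc8 and H3c6 are lowest in the DBA/2J chronic saline mice, at means of 6.78 and 6.97.

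The group means show which mice carry the strain difference. H4c3 averaged 10.05, 10.08, 10.12 and 10.24 in the C57BL/6J chronic saline, chronic nicotine, withdrawal saline and withdrawal nicotine groups. In the same order it averaged 9.44, 9.59, 9.62 and 9.53 in DBA/2J, so all 4 DBA/2J groups lay under all 4 C57BL/6J groups. H2bc4 averaged 12.22, 12.00, 12.08 and 12.07 in C57BL/6J and 11.52, 11.60, 11.64 and 11.62 in DBA/2J. H2bc6 averaged 8.53, 8.35, 8.48 and 8.38 against 7.88, 8.01, 8.01 and 7.92. For these 3 genes the strain order held in every pair of groups. H3c6 averaged 7.50, 7.17, 7.63 and 7.35 in C57BL/6J and 6.97, 7.38, 7.18 and 7.27 in DBA/2J. H2bc8 averaged 7.42, 7.16, 7.47 and 7.23 against 6.78, 7.24, 6.97 and 6.94. For H3c6 and H2bc8 the chronic nicotine group of DBA/2J lay above that of C57BL/6J. H4c8 averaged 10.24, 10.15, 10.13 and 10.35 in C57BL/6J and 10.35, 10.46, 10.56 and 10.46 in DBA/2J.

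On these arrays a lower RNA level and weaker binding of DBA/2J sequence to probes cannot be told apart, and neither can fewer cells of a type and less RNA per cell. Markers of oligodendrocytes, the myelin-forming cells, differed between the strains in the same direction. Of the 8 tested, 5 were lower in DBA/2J among saline mice (median -0.21) and 5 among nicotine mice (median -0.25), led by Mobp at -0.82 and -0.76. Among all genes 31.8% were called in saline mice, 19.4% lower, and 26.2% in nicotine mice, 10.8% lower. The marker counts that follow stand beside these shares. The mean of the 8 per mouse ran from -0.21 to 0.51 in C57BL/6J chronic saline, 0.11 to 0.42 in C57BL/6J withdrawal saline, -0.27 to 0.11 in DBA/2J chronic saline and -0.33 to 0.12 in DBA/2J withdrawal saline mice. All 8 lay above the array median on every array. Of the 10 spiny neuron markers 8 had lower values in DBA/2J saline mice (median -0.13), and Drd2 (-0.71), Adora2a (-0.41) and Ptpn5 (-0.27) passed. In nicotine mice only Drd2 of these 10 passed, at -0.55. Of 7 markers of oligodendrocyte precursors 2 were lower, Sox10 (-0.32) and Olig2 (-0.35). All 4 endothelial markers (median -0.11) and all 5 neuroblast and progenitor markers (median -0.14) had lower values, with 1 call each, Cldn5 and Cd24a. Astrocyte markers had a median of 0.13, and those of microglia, cortical neurons and blood lay between -0.02 and 0.02. The part of these markers in the strain difference of histone genes was not tested.

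Chronic nicotine was then set against chronic saline within each strain. In C57BL/6J no member passed, and no gene of the 9596 did (0%). The members nevertheless lay mostly under their saline mean. Values were lower in 33 of 37, with a median of -0.19 where that of all genes was -0.03. An unadjusted p under 0.05 was found for 11 members (29.7%), all with lower values, and for 4.68% of all genes. Members co-vary from mouse to mouse, as described below, so such counts are not counts of independent genes. By type the median was -0.21 for H2A (12 of 12 lower), -0.14 for H2B (10 of 13), -0.23 for H3 (3 of 3) and -0.07 for H4 (7 of 8).

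The 4 members with the smallest p were H2ac23, H2ac11, H1f2 and H4c6, none past the threshold. H2ac23 (Hist1h2ao), an H2A gene of the first block, stood at 6.59, 6.60, 6.76, 6.79 and 6.82 in the 5 nicotine mice. The 6 saline mice ran from 6.74 to 7.18 with a median of 7.09, and the difference was -0.32 (SE 0.11, limma adjusted p = 0.992). H2ac11 (Hist1h2ag) stood at 5.79, 5.80, 5.84, 6.04 and 6.23 against 5.85 to 6.38 (median 6.32), a difference of -0.31 (SE 0.11). No nicotine mouse reached the saline mean in either gene, and 1 saline animal, mouse 3, made the groups overlap in both. H4c6 (Hist1h4f) differed by -0.27 (SE 0.11), from 5.95, 6.04, 6.10, 6.14 and 6.35 against 5.98 to 6.70 (median 6.45). H1f2 stood at 6.69, 6.91, 6.94, 7.22 and 7.37 against 6.86 to 7.70 (median 7.32), a difference of -0.29 (SE 0.12). All 5 nicotine values of H2ac11 lay under the middle of their arrays. Over the 46 arrays H2ac11 exceeded that middle on 7 and H4c6 on 12. Without saline mouse 3 the median of the members was -0.25, and still none passed.

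In DBA/2J mice the members lay above their saline mean under chronic nicotine. Again none of the 37 passed, nor did any gene (0%). Values were higher in 32 of 37, with a median of 0.16 where that of all genes was 0.02. An unadjusted p under 0.05 was found for 10 members (27.0%), all with higher values, and for 8% of all genes. The medians were 0.20 for H2A (11 of 12 higher), 0.14 for H2B (10 of 13), 0.24 for H3 (3 of 3) and 0.15 for H4 (7 of 8).

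H2bc8 had the smallest p of the members. Its 6 nicotine mice ran from 6.97 to 7.49 with a median of 7.27, and its 6 saline mice from 6.47 to 7.14 with a median of 6.80. All 6 nicotine mice lay above the saline mean, and the difference was 0.45 (SE 0.12, limma adjusted p = 0.607). H3c6 ran from 7.09 to 7.64 (median 7.42) against 6.85 to 7.16 (median 6.96), a difference of 0.41 (SE 0.13), again with 6 of 6 above. H4c6 ran from 5.98 to 6.56 (median 6.19) against 5.79 to 6.09 (median 5.96) and differed by 0.29 (SE 0.10). All its saline values here lay under the middle of their arrays. H2ac4 differed by 0.32 (SE 0.13), with 5 of 6 nicotine mice above the saline mean. In each of these 4 genes the groups overlapped. Members with lower values included Hist1h2br and H4c11, whose group means were 6.17 under nicotine and 6.35 under saline.

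**Figure D3:**
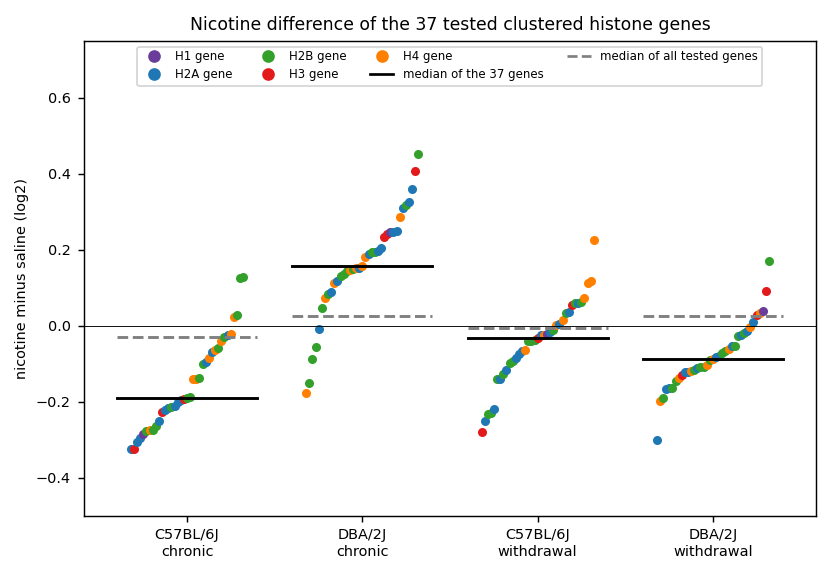
Nicotine minus saline difference (log2, vertical axis) of the 37 tested genes in each strain and phase, 1 point per gene coloured by histone type. The black line is the median of the 37 genes, at -0.19, 0.16, -0.03 and -0.09 from left to right, and the dashed line the median of all 9596 genes.

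Since the strains lay on opposite sides of 0, the difference of their responses was tested too. DBA/2J minus C57BL/6J response was positive in 33 of 37 members, with a median of 0.32 against 0.06 for all genes. No member and no gene passed (0%), and 19 members (51.4%) and 9.95% of all genes had an unadjusted p under 0.05. H3c6 (0.73, SE 0.19, limma adjusted p = 0.415), H2bc8 (0.72, SE 0.18, adjusted p = 0.380), H4c6 (0.56, SE 0.15) and H2ac11 (0.55, SE 0.15) came first. Of these, H4c6 exceeded the middle of the array on 12 of the 46 arrays only and H2ac11 on 7. H3c6 passed, with an adjusted p = 0.0303, when C57BL/6J chronic saline mouse 3 was left out, and then 1 member and 5 genes were called. With the spread of each array as a covariate the median fell to 0.19. Averaged over the strains, the chronic nicotine median was 0.01, with 0 members called and 0% of all genes, and 0 members against 2.62% of all genes had an unadjusted p under 0.05. H4c11 (-0.10) and H4c3 (0.09) then had the smallest p.

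Values of cell markers also differed in the same DBA/2J mice, though none of them passed. The median of all genes was 0.02. All 10 tested spiny neuron markers had higher values under chronic nicotine (median 0.23), and all 8 oligodendrocyte markers lower ones (median -0.20). Of 7 cortical excitatory neuron markers 6 had lower values (median -0.41), and of 5 markers of neuroblasts and dividing progenitors 5 had higher ones (median 0.21). Medians of the other lists were 0.06 for microglia, 0.05 for oligodendrocyte precursors, -0.00 for blood, -0.01 for astrocytes and -0.02 for endothelium. The mean of the spiny neuron markers per mouse ran from -0.19 to 0.34 under nicotine and from -0.44 to 0.05 under saline. That of the cortical markers ran from -0.90 to 0.30 and from -0.27 to 0.37. In C57BL/6J all 4 tested blood markers had lower values under chronic nicotine (median -0.40), with means per mouse from -0.32 to 0.53 under nicotine and from -0.21 to 1.15 under saline. No marker passed there either, and the medians of the other marker lists lay between -0.07 and 0.08. All tested markers of these lists but 1 of the neuroblast list lay above the array median on every array, and their part in the histone differences was not tested.

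In withdrawal the differences between nicotine and saline were smaller. Among C57BL/6J mice 24 of 37 members had lower values, with a median of -0.03 against -0.01 for all genes, and none passed (0% of all genes). Unadjusted p-values under 0.05 were found for 2 members and 2.99% of all genes. H2ac7 (-0.22, SE 0.09), H3c6 (-0.28, SE 0.13), H4c8 (0.22, SE 0.12) and H2bc8 (-0.23, SE 0.12) had the smallest p, each with an adjusted p of 1.0. For H4c8 the 6 nicotine mice ran from 10.23 to 10.55 (median 10.32) and the 6 saline mice from 9.81 to 10.35 (median 10.17), with all 6 above the saline mean. For H3c6 the nicotine mice ran from 6.99 to 7.87 (median 7.35) and the saline mice from 7.42 to 8.01 (median 7.59). These groups overlapped widely.

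Among DBA/2J withdrawal mice 31 of 37 members had lower values, with a median of -0.09 against 0.02 for all genes. The 19 members under the filter were divided, with 8 higher and 11 lower values, and by S-score 34 of all 67 members lay above 0 and 33 below. Of the 37 none passed (0% of all genes) and none had an unadjusted p under 0.05, against 5.45% of all genes. H2ac15 (Hist1h2ak) stood at 6.46, 6.59, 6.74, 6.87 and 6.97 in the 5 nicotine mice against 6.56 to 7.38 (median 7.02) in the 6 saline mice, a difference of -0.30 (SE 0.18, limma adjusted p = 0.857). H2bc15 (Hist1h2bn), which lies head to head with it, stood at 9.60, 9.63, 9.72, 9.77 and 9.90 against 9.74 to 10.21 (median 9.85), a difference of -0.19 (SE 0.13). In both genes all 5 nicotine mice lay under the saline mean. H4c9 (Hist1h4i) differed by -0.20 (SE 0.14) and H2ac23 by -0.16 (SE 0.11). Averaged over the strains the withdrawal median was -0.06, with H2ac7 at -0.14 (SE 0.07) as the member with the smallest p. No member passed, and 1 member and 1.78% of all genes had an unadjusted p under 0.05. The difference between the strains in their withdrawal response had a median of -0.03, no call and 0 members against 7.04% of all genes at an unadjusted p under 0.05, and that median was 0.03 with arrays centred on their median.

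Removing the pump alone was compared in saline mice, withdrawal minus chronic. In DBA/2J 33 of 37 members had higher values, with a median of 0.19 against 0.01 for all genes. None passed (0% of all genes), and 7 members (18.9%) and 4.05% of all genes had an unadjusted p under 0.05. H4c6 ran from 6.09 to 6.57 (median 6.22) after removal and from 5.79 to 6.09 (median 5.96) with the pump in place, a difference of 0.33 (SE 0.10). Its signal was low, above the middle of the array on 12 of the 46 arrays and under it in all chronic saline mice of DBA/2J. The next 3 members by p were H4c4 (0.30, SE 0.12), H2ac10 (0.31, SE 0.13) and H1f2 (0.24, SE 0.11). In C57BL/6J the median was 0.05 and no member passed, with 0 members and 3.74% of all genes at an unadjusted p under 0.05. Values there were 0.23 (SE 0.12) for H2bu1-ps, 0.20 (SE 0.14) for H2ac22, -0.16 (SE 0.11) for H1f2 and -0.14 (SE 0.09) for H2bc4.

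The chronic saline DBA/2J mice enter the chronic nicotine difference, the pump removal difference, the phase difference of DBA/2J and the strain difference of saline mice. These values are therefore not independent of each other, and each stands for itself. In DBA/2J the nicotine response in withdrawal minus that in chronic treatment had a median of -0.24 over the members (33 of 37 negative) against -0.01 over all genes, with 10 members (27.0%) and 3.74% of all genes at an unadjusted p under 0.05. H4c6 stood at -0.42 (SE 0.15), H2bc8 at -0.48 (SE 0.18), H2ac10 at -0.48 (SE 0.19) and H2ac23 at -0.36 (SE 0.15), each with a limma adjusted p of 0.980. The same difference in C57BL/6J had a median of 0.10, led by H2ac23 at 0.36 (SE 0.15), with 1 member and 2.5% of all genes at an unadjusted p under 0.05. None of the members or genes passed in either strain (0%). The signal of H4c6 was above the middle of the array on 12 of the 46 arrays only.

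Values of cell markers differed in these contrasts as well, and only some of the lists are named. In the DBA/2J phase difference all 10 spiny neuron markers (median -0.15), all 5 neuroblast markers (median -0.25) and all 4 blood markers (median -0.27) were negative. All 8 oligodendrocyte markers (median 0.30) and 6 of 7 cortical neuron markers (median 0.52) were positive. In DBA/2J withdrawal all 10 spiny neuron markers (median 0.08) and all 7 cortical markers (median 0.18) had higher values, and all 4 blood markers lower ones (median -0.28). In C57BL/6J withdrawal the spiny neuron markers had higher values in 10 of 10 (median 0.15), and the cortical (median -0.25) and oligodendrocyte markers (median -0.13) lower ones in all. After pump removal in DBA/2J all 4 blood markers had higher values (median 0.23). None of these markers passed, and their part in the histone values was not tested.

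A level per mouse, the median over the 37 tested members of each gene's deviation from its mean over all mice, places the mice beside one another. DBA/2J chronic saline mice were lowest, at -0.22 ± 0.07 (SD, n = 6), from -0.30 to -0.16. DBA/2J chronic nicotine mice averaged -0.05 ± 0.16 (n = 6), DBA/2J withdrawal saline mice -0.04 ± 0.07 (n = 6) and DBA/2J withdrawal nicotine mice -0.12 ± 0.09 (n = 5). C57BL/6J withdrawal saline mice were highest, at 0.18 ± 0.08 (n = 6), from 0.09 to 0.33. C57BL/6J chronic saline mice averaged 0.11 ± 0.21 (n = 6), C57BL/6J chronic nicotine mice -0.05 ± 0.14 (n = 5) and C57BL/6J withdrawal nicotine mice 0.10 ± 0.14 (n = 6). C57BL/6J chronic saline mouse 3 stood apart from the other 5 mice of its group, which ran from 0.03 to 0.37, at -0.25. Its array also had the lowest correlation with its group of all 46 (0.993, the next 0.995) and the largest SD of deviations from the group means (0.216). Without it the saline strain comparison called 24 members, with a median of -0.30, and all 21 earlier calls were among them. The count over all genes without this mouse is not given here, so the rise from 21 cannot be called particular to histone genes.

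**Figure D4:**
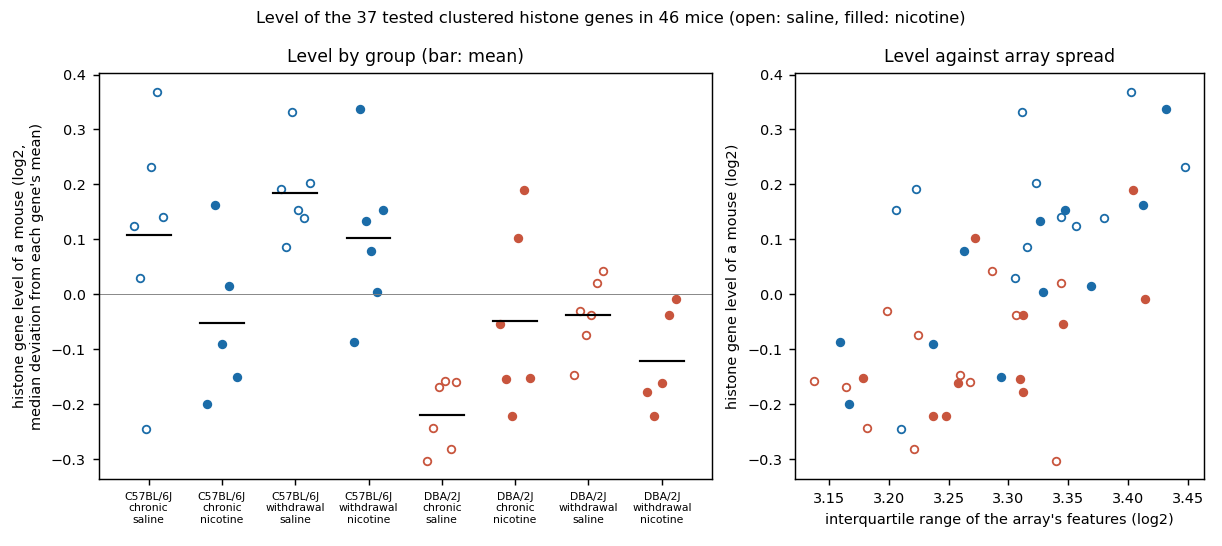
Left, histone gene level of each of the 46 mice (log2, vertical axis) by group, with the group mean as a bar; the DBA/2J chronic saline mice lie between -0.30 and -0.16. Right, the same level against the interquartile range of the array's features (log2, horizontal axis); mice on arrays with a wider range tend to have a higher level.

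The level moved with a property of the array. Over the 46 arrays, both as deviations from the group means, the level and the interquartile range of the array's features had a Pearson correlation of 0.632 and a Spearman correlation of 0.541, given as a description. Without the 2 arrays farthest from the median range it was 0.631. The range averaged 3.32 in C57BL/6J saline mice and 3.24 in DBA/2J saline mice, and 3.30 in the nicotine mice of each strain. With the range as a covariate, chosen after seeing the data, the saline strain comparison called 16 of the 37 members with a median of -0.13, and 2615 of all 9596 genes. The nicotine strain comparison then called 9 members and 2775 genes. The medians of chronic nicotine were then -0.12 in C57BL/6J and 0.09 in DBA/2J. The 5 members no longer called were H2ac10, H2ac11, H2ac13, H2ac14 and H4c4, while H4c3, H4c12, H2bc4, H2bc6 and H1f2 were called in both strain comparisons. After quantile normalization, which gives all arrays one distribution, 23 members were called in saline mice, with a median of -0.27, and 3016 of all genes, of which 60.6% were lower.

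The members also tended to deviate together from mouse to mouse within groups. The median correlation of the deviations from the group means was 0.319 over the 666 pairs of tested members and 0.0288 over all pairs of tested genes. It was 0.305 after quantile normalization and 0.236 with the array range as a covariate. Pairs of the same histone type had a median of 0.357 and pairs of different types 0.299. The closest pairs were H2ac14 with H2ac22 (0.960), H2ac10 with H2ac14 (0.954), H2ac10 with H2ac22 (0.945) and Hist1h2br with H2bc23 (0.909), each within one histone type. The features of Hist1h2br and H2bc23 are annotated with the same transcript, with 3788 bases and 40 probes each, and cannot be taken as separate readings. What shared probes or cross-hybridisation between copies add to the other values was not tested. H2ac7 had the highest mean correlation with the other members (0.471), and its feature spans most of the second block. H3c6 averaged 0.447, H4c3 0.413, H2bc8 0.256 and H4c8 0.170. H2bc3 (-0.01) and H2ac1 (-0.04) did not follow the others. H2ac1 and its neighbour H2bc1 encode histone variants of the testis.

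**Figure D5:**
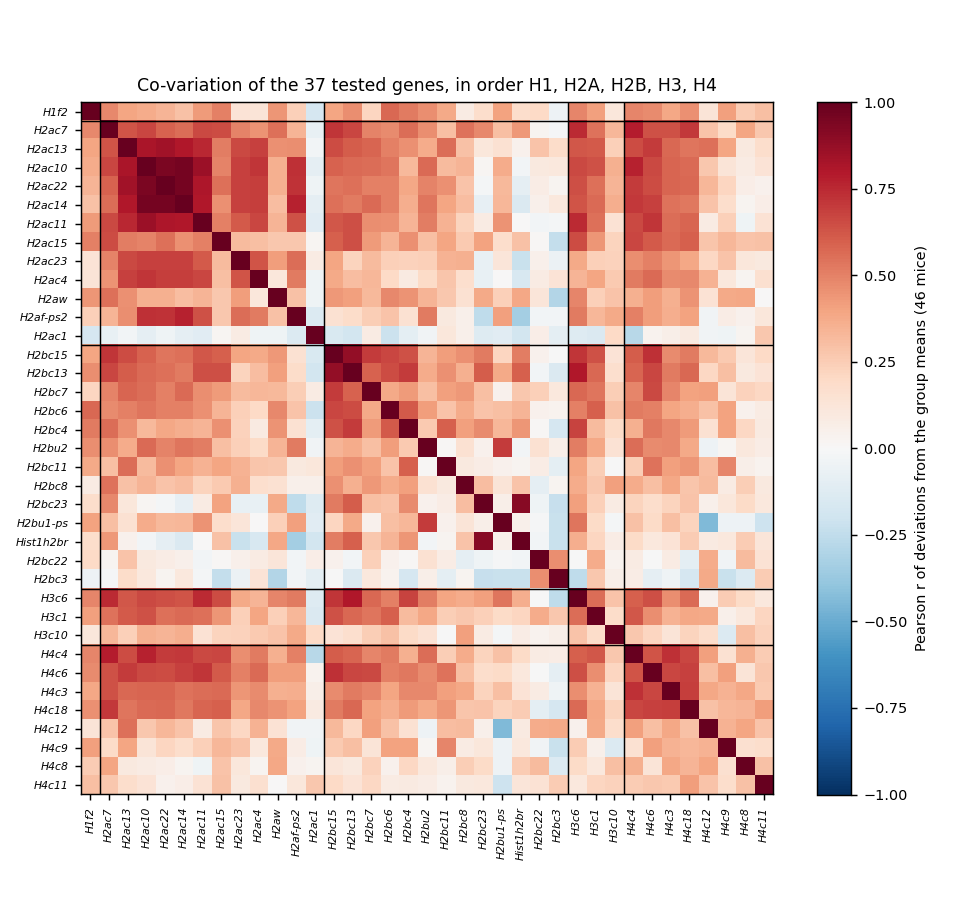
Pearson correlation between the 37 tested genes (both axes, grouped by histone type) of the deviations from group means over 46 mice, from -1 in blue to 1 in red. Most of the pairs are above 0, with a median of 0.319, and H2ac1 and H2bc3 form pale rows.

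Many histone genes lie head to head in pairs of H2A and H2B and share the DNA between their starts, as in the sequences printed above for H2bc8 and H2bc13. Within 500 bases 10 such pairs were found among the members, with 164 to 281 bases between the starts. In 6 of them both genes were tested, with a median correlation of 0.420. H2bc13 with H2ac13 stood at 0.605, H2ac15 with H2bc15 at 0.594 and H2bc7 with H2ac7 at 0.496. The feature of H2ac7 runs over H2bc7 itself, so this last value does not compare separate genes, though it enters the median. H2ac22 with H2bc22, at 0.0761, and H2bc23 with H2ac23, at -0.0742, lay far lower.

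The 19 members under the intensity filter exceeded the middle of the array on 0 to 3 arrays each. In the fit with no filter they had a median of -0.16 in the saline strain comparison, with 6 lower and 1 higher call. The 6 were H3c8 (-0.31), H3c11 (-0.36), H1f1 (-0.32), H4c17 (-0.27), H2bc14 (-0.24) and H4c2 (-0.24). The higher one was H2bc1 (Hist1h2ba), the testis H2B, at 0.23 (SE 0.07) among saline mice. It was also the single such member called among nicotine mice, at 0.31 (SE 0.07). In that fit 22.2% of all genes were called in saline mice and 15.3% in nicotine mice. In chronic nicotine these 19 had medians of -0.08 in C57BL/6J and 0.12 in DBA/2J, with 0 calls.

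The Hist2 and Hist4 genes were described by S-scores, signed and standardised differences that compare every nicotine mouse with the saline mice that match it in strain and phase. The scores come from the same arrays and the same saline mice as the log2 values and are no separate evidence. Of all 67 members 0 passed in any of the 4 nicotine groups, as did 0% of the 25802 genes, and 8, 2, 5 and 0 had an unadjusted p under 0.05 in C57BL/6J chronic, C57BL/6J withdrawal, DBA/2J chronic and DBA/2J withdrawal mice. Among all genes these shares were 3.13%, 2.95%, 5.64% and 6.44%. In C57BL/6J chronic mice all 11 members of Hist2 and Hist4 had a mean score under 0, with a median of -0.50. H2ac19, an H2A gene, had scores of -1.37, -1.19, -1.11, -0.66 and -0.35 in the 5 mice, a mean of -0.94. H2ac18, another H2A gene, averaged -0.80 and H4f16 (Hist4h4) -0.67, and all 5 mice were under 0 in each. The features named H2ac18 and H2ac19, of 659 bases each, lie apart on chromosome 3. Each overlaps the gene of the other name in RefSeq and not its own, so by position the names are exchanged. Whether their probes tell these copies apart was not tested, and they are not taken as separate readings. In DBA/2J chronic mice 10 of 11 had a mean above 0, with a median of 0.31. H3c13 (Hist2h3b) ran from 0.36 to 1.30 in the 6 mice, with a mean of 0.79, followed by H4c14 (0.57) and H2ac21 (0.50). In C57BL/6J withdrawal mice all 11 means were under 0, led by H3c14 (-0.71), H3c15 (-0.71) and H2bc21 (-0.67). In DBA/2J withdrawal mice 7 of 11 were above 0, led by H2bc18 (0.80) and H4c14 (0.61), while H2ac19 stood at 0.39.

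Genes that serve the clustered histones were read beside them. Among all genes the strain comparison called 31.8% in saline mice, 19.4% lower and 12.4% higher. In nicotine mice it called 26.2%, with 10.8% lower and 15.4% higher. Of 11 tested genes of histone mRNA transcription and 3′ end processing, 5 were lower and 1 higher in DBA/2J saline mice, with a median of -0.06. Lsm11, a protein of the U7 particle that trims histone mRNA, was higher, at 0.34 in saline and 0.40 in nicotine mice. Cpsf2 and Cpsf3, the subunits of the cleavage complex, were lower at -0.26 and -0.23 in saline mice, and Upf1, a helicase of mRNA decay, at -0.21. Histone chaperones numbered 1 higher and 1 lower call among 12 in saline mice, Nap1l4 (0.12) and Nap1l1 (-0.14). In nicotine mice they numbered 4 higher and 1 lower, with Nap1l1 at -0.24. Of 6 histone genes outside the clusters, which are made all through the cell cycle, 1 was lower among saline mice, H2afv at -0.28, and none among nicotine mice. Their median was -0.09 in saline and 0.04 in nicotine mice.

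Genes of S phase were mostly weak in this tissue. Of 17 with array values 6 were tested, and 10, among them Cdk1, Rrm2 and Birc5, lay under the array median on all arrays. In the saline strain comparison 0 of 6 passed, with a median of -0.00, and in nicotine mice Rrm1 was higher at 0.15. Over all genes 31.8% and 26.2% were called there. In chronic nicotine the S phase genes had medians of -0.02 in C57BL/6J and 0.04 in DBA/2J, the chaperones -0.03 and -0.00, the processing genes -0.04 and 0.01, and the histone genes outside the clusters -0.05 and 0.09. No gene of these lists passed under nicotine.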

How the data were processed

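RNA of the nucleus accumbens was hybridised to Affymetrix MTA 1.0 arrays, per the labels. The authors deposited 1 log2 value per array and transcript cluster, from 2.58 to 19.9, for 48088 features. Array medians ran from 6.30 to 6.46 and interquartile ranges from 3.14 to 3.45. The comparison data, also deposited, hold S-scores, in score units. For summarisation, scaling, S-scores and genome build, tools were not given in the sources used here. Coordinates are those of the comparison data. Gene names were matched to RefSeq (GRCm38.p6) by accession for 54 members, by symbol for 6 and by older symbol for 7, and 65 of 67 features overlapped the gene so named. One RefSeq name of another histone type was not used (Hist1h2br).

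One feature per gene was kept, and genes above the 50th percentile of their array on at least 5 arrays were tested (9596 of 16254). limma 3.58.1 in R 4.3.3, with the package data.table (version 1.17.8), was fitted with 1 coefficient per group (degrees of freedom: 38 residual, 4.14 prior), 14 contrasts, two-sided, Benjamini-Hochberg over all genes per contrast, threshold 0.05. S-scores were tested with limma, letting the number of saline mice enter the error. The fit was checked on simulated data. Python 3.11.15 and matplotlib 3.10.9 were used for plots. The members, lists and tests were chosen with earlier results of these data known.

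Named members were those called, up to 10 in each direction per contrast, filled to 4 with those of smallest p, and the 3 without array values with the largest mean S-score. Alternatives were other filters, scalings and fits, a block for mouse number and leaving out single mice. The array range as covariate, the features left out for overlap and the strain by drug contrast were chosen after seeing the data. Mouse numbers restart in every group and no label ties a number to a shared litter or day. Between same-numbered mice of different groups the residuals had a median correlation of -0.0024 over 155 pairs, with 40 above 0.1. No pairing was used, and these values cannot decide whether some numbers share a litter or day. No batch is given in the labels. The number of arrays limits the precision, and where nothing states separate litters the p-values measure the spread between these mice.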

Additional observations from a re-analysis of the deposited data

Results flagged for a closer look

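In 208 groups of 5 or 6 mice (26 genes in 8 groups), 17 held 1 mouse far from the others by Dixon's test, where chance gives about 1 in 20, or 10.4. No cause was tested.

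In C57BL/6J chronic saline mice, mouse 3 was lowest in H3c6 at 6.82 (the others averaged 7.63) and in H2ac11 at 5.85 (6.33), and mouse 4 was highest in H4c9 at 9.19 (8.72). In C57BL/6J chronic nicotine mice, mouse 2 was highest in H4c11 at 6.97 (6.52) and in H4c4 at 12.89 (12.02). In C57BL/6J withdrawal nicotine mice, mouse 2 was highest in H2ac11 at 6.63 (6.21) and mouse 1 lowest in H2bc6 at 8.08 (8.45). In C57BL/6J withdrawal saline mice, H1f2 was highest in mouse 1 at 7.41 (7.10), H2bc15 was highest in mouse 3 at 10.28 (9.89) and H4c18 was lowest in mouse 6 at 6.63 (6.92).

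In DBA/2J withdrawal saline mice, H1f2 was highest in mouse 4 at 6.91 (6.76), H4c11 was lowest in mouse 3 at 5.95 (6.41), and mouse 2 was lowest in H4c12 at 8.44 (8.85) and in H2aw at 7.31 (7.63). In DBA/2J withdrawal nicotine mice, mouse 5 was highest in H2bc8 at 7.44 (6.82) and in H4c18 at 6.79 (6.47). In DBA/2J chronic saline mice, mouse 4 was highest in H4c11 at 6.88 (6.24).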

How the results depend on the processing

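In saline mice the strain comparison called 20 to 24 members when single mice were left out, with medians from -0.30 to -0.23, and in nicotine mice 7 to 9, with medians from -0.12 to -0.03. Over the other settings it called 16 (array range as covariate) to 28 (no filter, 56 members in the fit) in saline mice, and 9 of 13 with a 75th percentile filter. In nicotine mice it called 5 (75th percentile filter) to 11 (array weights), and all 7 genes stayed called wherever they were in the fit. Calls over all genes moved with the setting too. In saline mice they numbered 3052 in the main fit, 3331 with arrays centred on their median and 3016 after quantile normalization. In nicotine mice they numbered 2510, 2099 and 2667 in the same order. For the 75th percentile filter, array weights, the mouse number block and single mice left out no such count is given here. The member counts therefore show only how calls shift. H2ac14 lost its saline call with the array range as covariate (-0.19, adjusted p = 0.107). The strain difference of the chronic response had a median of 0.19 with that covariate and 0.29 to 0.43 when single mice were left out. It called 0 to 1 members, H3c6 at 0.87 (limma adjusted p = 0.0303) without C57BL/6J chronic saline mouse 3. No cause was tested.

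The chronic nicotine medians ran from -0.25 to -0.14 in C57BL/6J and from 0.14 to 0.20 in DBA/2J when single mice were left out, and the withdrawal medians from -0.07 to 0.01 and from -0.12 to -0.07. No nicotine contrast within a strain called a member under any setting run. Mouse numbers were not used to pair the samples, and whether some of them mark a shared litter or day was not tested. With mouse number as a block, 22 members were called in saline mice, 8 in nicotine mice and 0 in the nicotine contrasts. Low signal limits the 19 members under the filter, and the number of arrays limits the precision.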
